A study of Homo sapiens with 4 samples.

Results

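The genes described here encode the protein folding machinery of the endoplasmic reticulum (ER), the translocon that feeds new proteins into it, and the sensors and targets of the unfolded protein response. They are 38 genes, taken as a list of symbols that was matched to the Ensembl IDs of the deposited files, and they stand beside 26601 genes that all 4 files hold. All 38 matched an ID, 37 were listed in all 4 files, and all 37 passed the filter of a mean of at least 1 RPKM, as 10771 genes of the whole table did. RPKM is a read count scaled to gene length and library depth. All libraries come from MOLM-13 cells, a line grown from a human acute myeloid leukaemia. In 2 of them doxycycline (labelled 1 mg/ml, 4 days) had been given to switch on GADD45G, which encodes a small growth arrest protein induced by stress, and 2 came from untreated cells. The series describes them as 2 biological replicate experiments. Doxycycline and GADD45G differed together between the groups and cannot be told apart, and neither the construct's promoter nor whether the line is a clone is given in the sources used here.

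The ER folds secreted and membrane proteins. Nascent chains enter through the SEC61 channel, lose their signal peptide, and are held by the HSP70-type chaperone BiP (HSPA5), by the lectin chaperones calnexin and calreticulin and by disulfide isomerases, while proteins that fail to fold are returned to the cytosol and degraded. When unfolded chains accumulate, the membrane sensors IRE1 (ERN1), PERK (EIF2AK3) and ATF6 signal to the nucleus. IRE1 does so by splicing the XBP1 message, and ATF6 and spliced XBP1 raise the transcription of chaperones, isomerases and degradation factors through ER stress elements in their promoters. Myeloid cells use this machinery to make granule and secreted proteins.

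GADD45G (ENSG00000130222.6), the target of the induction, had 3236 and 2118 RPKM with doxycycline and 10.5 and 0.289 RPKM without it. Depth recovered from the values was 15683931 to 18895470 reads, and the 37 genes had between 52 and 46308 reads in a library, with a median of 1650. Of 11 myeloid markers listed in all files, 7 to 9 reached 1 RPKM in each library, and their summed level was 510 and 481 RPKM in induced libraries and 2216 and 1785 RPKM in untreated ones. LYZ and CTSG, granule protein genes, carried that difference, with 268 and 242 RPKM induced against 1173 and 868 RPKM untreated for LYZ and 23.0 and 12.5 RPKM induced against 916 and 776 RPKM untreated for CTSG. The other myeloid markers were mixed. FCGR2A, an Fc receptor, had 53.0 and 71.3 RPKM induced against 4.44 and 5.14 RPKM untreated, and ITGAM was also called higher. SPI1 and PTPRC were higher and CD33 lower, each without overlap, but none of these was called. CSF1R overlapped. FLT3 (lower), CD14 (higher) and MPO were under the filter and were not tested. MPO had 19 and 13 reads in induced libraries and 11 and 12 in untreated ones, too few to give a direction. CEBPA, missing from induced library 1, had 0.643 RPKM in induced library 2 against 3.36 and 3.54 RPKM untreated. Epithelial markers set the libraries of replicate 1 apart. The 7 of them summed to 40.8 RPKM in induced library 1 and 0.245 RPKM in induced library 2, and to 41.7 and 0.423 RPKM in untreated libraries 1 and 2. KRT19 and EPCAM were at 0 in both libraries of replicate 2. The part of either marker list in the results below was not tested.

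On the deposited RPKM, the isomerases P4HB, PDIA4 and PDIA6 and the chaperones CALR, HSP90B1 and HYOU1 fell after induction. The oxidase ERO1A, the ubiquitin ligase SYVN1 and the sensor ERN1 rose. The falls of P4HB, CALR and HSP90B1 were not called under all 4 scalings given below. The largest fall was that of the disulfide isomerase PDIA6, at 0.31 of its untreated level, and the largest rise that of ERO1A, 2.52-fold. With limma on log2(RPKM + 1), adjusted over all 10771 genes by Benjamini-Hochberg at 0.05, 3 of the 37 genes rose and 11 fell, while 23 did not pass. The share called was 37.8%, against 38.9% of all tested genes. By direction, 8.11% rose against a background of 12.2%, and 29.7% fell against a background of 26.7%. On the RPKM as deposited the list was thus called at about the rate of the whole table. The median log2 change was -0.12 for its genes and -0.21 for all tested genes. In bulk RNA, fewer cells of a type and less RNA per cell cannot be told apart.

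The count of falls depended on the scaling. It was 6 after upper quartile scaling, 3 after TMM, 6 after quantile normalization and 5 when the median change was shifted to 0, while the rises numbered 3, 4, 3 and 3. For comparison, TMM gave 1967 rises and 2021 falls over all genes, in place of 1314 and 2871. In the order above, 9, 7, 9 and 8 of the 37 genes were called in either direction, against 3993, 3988, 3954 and 3922 of all 10771. The list was thus called less often than the whole table under each scaling. The median log2 change of the 37 genes turned positive under each of these scalings (0.046 to 0.15), and TMM moved that of all tested genes to 0.02. The calls of 6 genes held under all 4 scalings: PDIA6, PDIA4 and HYOU1 were lower, and ERO1A, SYVN1 and ERN1 higher. MANF, HERPUD1, SSR1 and SPCS3 were called under none of them. Leaving out a library leaves 1 in a group, and not all of the 14 called genes then kept their call. The log2 change ran from -0.51 to -1.79 for SDF2L1, from -0.43 to -1.24 for SPCS3 and from 1.1 to 1.5 for ERO1A. Only PDIA4, PDIA6 and ERO1A kept the call without each library in turn. Between the libraries of replicate 2, which had epithelial markers near 0, the 14 genes had log2 differences of -0.42 (SSR1) to -1.68 (PDIA6) for the falls and 0.62 (ERN1) to 1.56 (ERO1A) for the rises; their direction adds nothing, since the groups did not overlap for any of the 14.

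**Figure D1:**
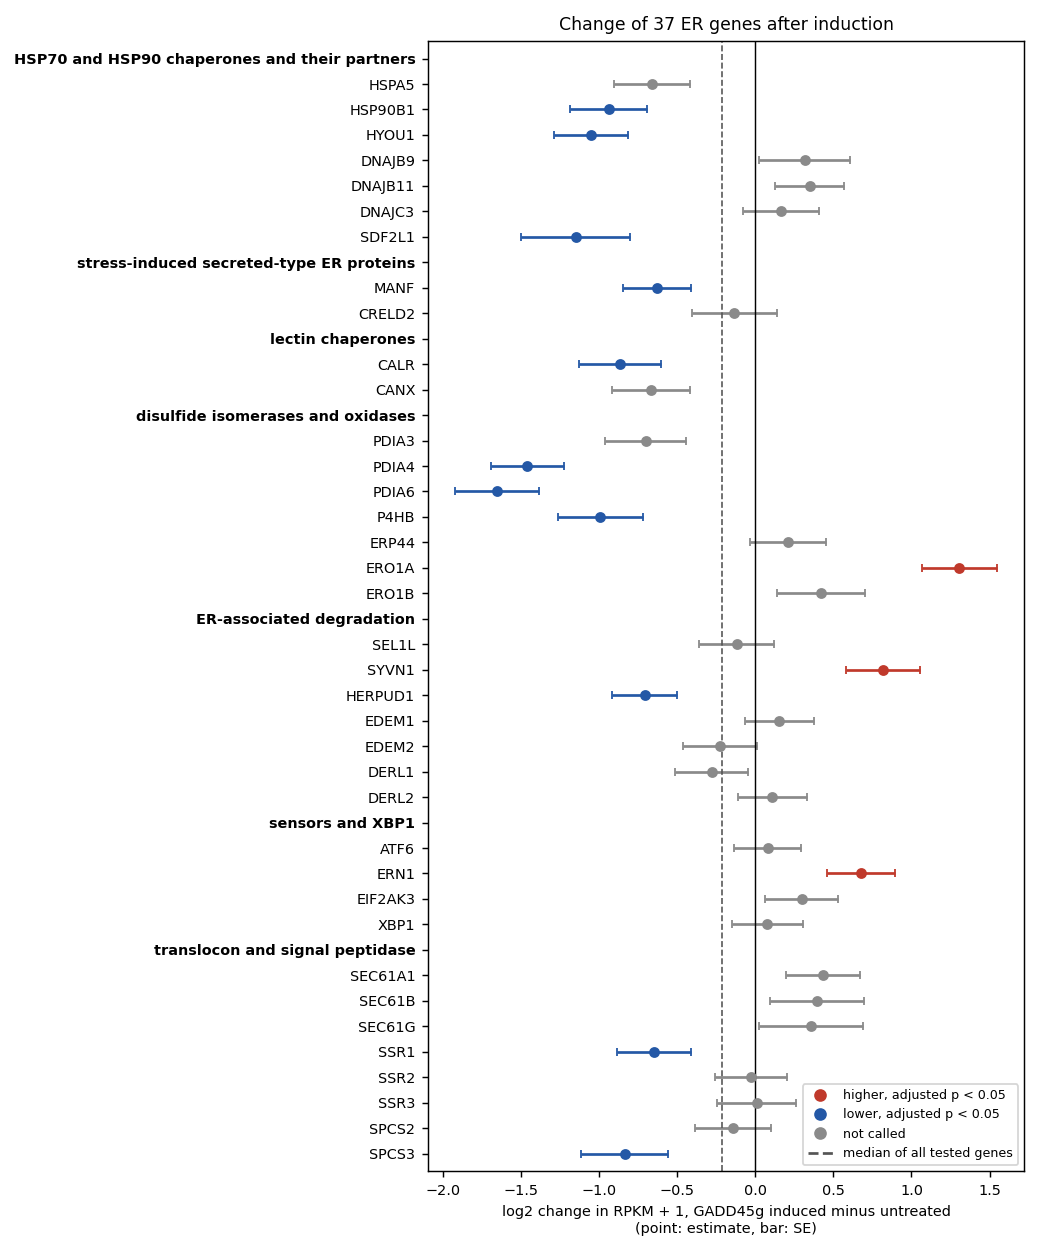
Log2 change in RPKM + 1 (horizontal axis) of the 37 tested genes, ordered by role, induced minus untreated. Points are limma estimates and bars their SE (n = 2 libraries per group); blue genes were called lower, red ones higher and grey ones neither, and the dashed line is the median of all tested genes at -0.21.

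Promoters of these genes were searched for the letters that ATF6 and XBP1 are known to read, and 4 are shown. RefSeq promoters (GRCh38.p14, 250 bases before to 50 after an annotated start) were found for 36 of the 38 genes, with 46 entries between them; PDIA3 and DERL1 had none. The ER stress element (ERSE), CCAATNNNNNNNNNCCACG on either strand, was held by 8 of the 36 genes (22.2%), against 25 of 27305 genes in the table (0.0916%) and 27 of its 35116 promoters (0.0769%). ERSE-II, ATTGGNCCACG, was held by another 3 genes (8.33%), against 19 genes (0.0696%) and as many promoters (0.0541%). The core of the unfolded protein response element (UPRE), GACGTGG, was held by 7 genes (19.4%), against 1043 genes (3.82%) and 1100 promoters (3.13%). Of the 11 genes with an ERSE or ERSE-II match, 6 were called lower (background 26.7%), 0 higher and 5 neither, and their median log2 change was -0.71. Of the other 24 tested genes with a promoter, 5 were called lower and 3 higher, with a median of 0.13. After TMM scaling 2 of the 11 (PDIA6 and HYOU1) were called lower, about the share over all tested genes (2021 of 10771). Their median was then -0.48, against 0.02 over all tested genes. Of the 24, 1 was then called lower and 4 higher, with a median of 0.37. Over the 4 scalings, 2 to 4 of the 11 were called lower, against 2021 to 2293 of all 10771 tested genes. Leaving out a library gave medians of -0.67 to -0.83 for the 11 and -0.035 to 0.24 for the 24. These counts and medians are a description without a test, and a match shows letters, not binding. The list was drawn to hold targets of the unfolded protein response. A larger share of matches than over all genes therefore follows from the list and is no result of these data. The promoter of HSP90B1 held the most ERSE matches of a single entry, PDIA6 and PDIA4 had the largest falls and ERO1A the largest rise. Each is written 5′ to 3′ on the gene's strand, with the fixed letters of a match in capitals; positions count from 0 at the start site.
HSP90B1: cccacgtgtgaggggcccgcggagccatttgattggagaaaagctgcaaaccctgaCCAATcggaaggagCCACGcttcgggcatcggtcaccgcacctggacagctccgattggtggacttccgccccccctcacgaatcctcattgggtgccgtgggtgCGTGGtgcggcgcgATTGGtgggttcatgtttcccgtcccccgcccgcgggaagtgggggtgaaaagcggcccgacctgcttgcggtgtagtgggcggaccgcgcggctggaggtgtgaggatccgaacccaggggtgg
PDIA6: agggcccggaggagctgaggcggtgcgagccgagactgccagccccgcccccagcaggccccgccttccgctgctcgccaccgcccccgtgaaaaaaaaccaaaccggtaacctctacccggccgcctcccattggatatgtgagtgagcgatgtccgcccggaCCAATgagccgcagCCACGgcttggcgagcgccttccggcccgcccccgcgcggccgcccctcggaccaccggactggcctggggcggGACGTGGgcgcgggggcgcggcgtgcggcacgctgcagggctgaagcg
PDIA4: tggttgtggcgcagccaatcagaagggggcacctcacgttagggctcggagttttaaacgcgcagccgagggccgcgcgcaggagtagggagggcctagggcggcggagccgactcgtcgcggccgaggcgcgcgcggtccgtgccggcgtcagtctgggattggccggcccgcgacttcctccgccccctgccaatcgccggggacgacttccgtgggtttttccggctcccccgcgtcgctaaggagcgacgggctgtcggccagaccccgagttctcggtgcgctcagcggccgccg
ERO1A: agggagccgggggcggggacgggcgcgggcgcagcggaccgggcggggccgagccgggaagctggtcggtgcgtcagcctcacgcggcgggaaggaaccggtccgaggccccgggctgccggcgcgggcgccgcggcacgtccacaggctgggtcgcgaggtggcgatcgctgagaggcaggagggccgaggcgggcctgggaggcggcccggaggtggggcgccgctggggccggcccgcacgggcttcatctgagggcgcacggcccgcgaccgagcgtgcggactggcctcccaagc
HSP90B1 (chr12:103930160-103930459, plus strand) held an ERSE at -194 to -176 and another, on the opposite strand, at -89 to -71 from the start site. PDIA6 (chr2:10812736-10813035, minus strand) has 2 entries in the table, and the one shown held an ERSE at -86 to -68 and an UPRE core at 2 to 8. PDIA4 (chr7:149028441-149028740, minus strand; 1 of 2 entries) held none of these motifs in either entry. ERO1A (chr14:52695509-52695808, minus strand) held none in the window, and 80.3% of its bases were guanine or cytosine. Among genes not shown, HYOU1 held 2 ERSE-II matches, at -185 to -175 and -79 to -69, and they overlapped UPRE cores at -187 to -181 and -81 to -75.

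**Figure D2:**
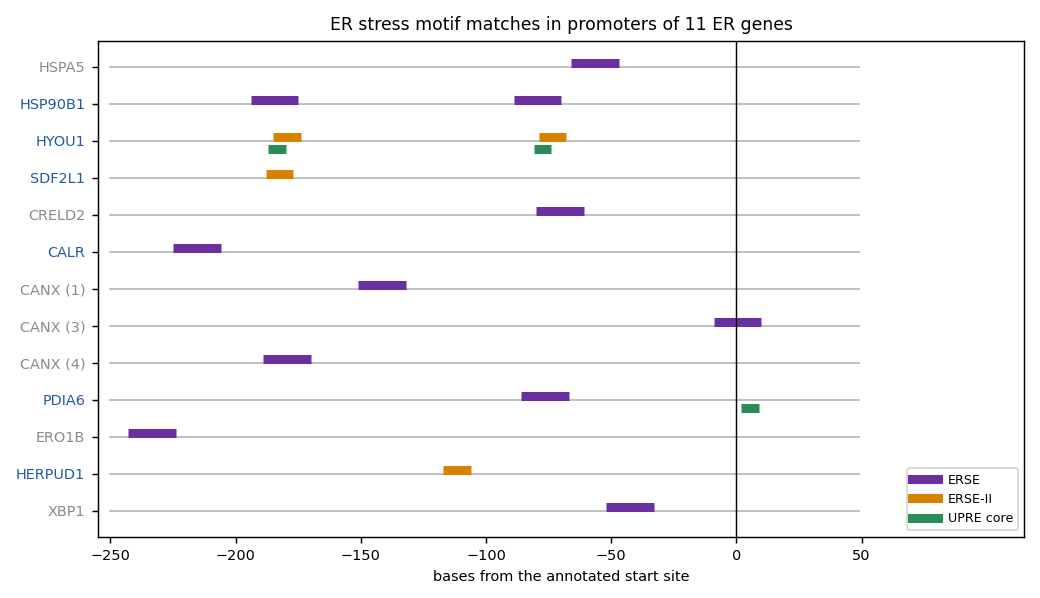
Position of motif matches (horizontal axis, bases from the annotated start site) in the 13 promoter entries, of 11 genes, that held an ERSE (purple) or ERSE-II (orange); green bars mark the UPRE core GACGTGG. Gene names are blue where the gene was called lower and grey where it was not called, and numbers in brackets tell entries of CANX apart.

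Among the HSP70 and HSP90 chaperones and their partners, 3 of 7 genes fell (42.9%, background 26.7%) and 0 rose (background 12.2%). Of these 3, only HYOU1 kept its call after TMM scaling. HSP90B1 (limma adjusted p = 0.0538) and SDF2L1 (limma adjusted p = 0.0608) then did not pass. Over all tested genes, 2021 of 10771 were called lower after TMM scaling. HSP90B1 (ENSG00000166598.8), the ER form of HSP90, had 68.9 and 82.8 RPKM in induced libraries against 151 and 141 RPKM in untreated ones. Both induced values lay well below both untreated ones (log2 change -0.94 ± 0.25, SE; limma adjusted p = 0.0118). HYOU1 (ENSG00000149428.14), a large HSP70-type protein that exchanges nucleotide on BiP, had 9.19 and 6.48 RPKM after induction against 16.4 and 18.0 RPKM untreated. The groups did not overlap and the log2 change was -1.06 ± 0.24 (adjusted p = 0.00502). SDF2L1, a partner of the BiP cycle, had 8.57 and 2.96 RPKM in induced libraries against 13.9 and 11.6 RPKM in untreated ones. The groups did not overlap, but the induced libraries differed widely between themselves, and its log2 change of -1.15 (adjusted p = 0.0238) became -0.51 without induced library 2 and -1.79 without induced library 1.

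BiP itself narrowly missed the threshold. HSPA5 (ENSG00000044574.7) had 92.1 and 83.1 RPKM after induction, from 6797 and 5183 reads, against 145 and 133 RPKM in untreated libraries, from 10665 and 8164 reads. The groups did not overlap, and the log2 change of -0.66 ± 0.24 had an adjusted p of 0.0517 with limma. It passed under 5 of the 16 alternatives, with adjusted p between 0.0191 and 0.230 over all of them. The J-domain co-chaperones, which stimulate BiP's ATPase, were not called. DNAJB11 had 13.6 and 11.8 RPKM after induction against 10.7 and 8.90 RPKM untreated (log2 change 0.35, adjusted p = 0.246), without overlap. DNAJB9, with log2 change 0.32, and DNAJC3, with 0.16, had overlapping groups. MANF and CRELD2 are small ER proteins induced by stress. MANF had 12.7 and 12.8 RPKM after induction against 20.1 and 20.51 RPKM untreated, so that each group was tight and they stood apart (log2 change -0.63, limma adjusted p = 0.0412). It was called under none of the 4 scalings (log2 change -0.37 to -0.47). CRELD2 had 4.19 and 2.13 RPKM induced against 3.98 and 2.94 RPKM untreated, an overlap.

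The lectin chaperones, which retain glycoproteins until they are folded, both had lower values. CALR (ENSG00000179218.9), calreticulin, had 252 and 199 RPKM in induced libraries against 411 and 409 RPKM in untreated ones. The groups lay far apart and the untreated pair was nearly equal (log2 change -0.87 ± 0.26, adjusted p = 0.0236). However, CALR was called under only 1 of the 4 scalings (log2 change -0.60 to -0.87). CANX, its membrane-bound relative calnexin, had 76.4 and 76.0 RPKM after induction against 136 and 109 RPKM untreated. The groups did not overlap, but the log2 change of -0.67 did not pass (adjusted p = 0.0544), but did under 5 of the 16 alternatives.

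The disulfide isomerases and oxidases held the largest changes in both directions. Of 7 tested genes 3 were lower (42.9%, background 26.7%) and 1 higher (14.3%, background 12.2%). PDIA6 (ENSG00000143870.8), an isomerase that also binds BiP and IRE1, had 38.2 and 27.6 RPKM in induced libraries against 121 and 90.4 RPKM in untreated ones. Its log2 change was -1.66 ± 0.27 (adjusted p = 0.00077), and was -1.39 to -1.88 over all alternatives. PDIA4 (ENSG00000155660.6), which carries an additional thioredoxin-like domain, had 21.4 and 17.6 RPKM after induction against 53.1 and 57.3 RPKM untreated. The groups were far apart, with 2.83-fold less after induction (log2 change -1.46 ± 0.23, adjusted p = 0.000723).
P4HB, the founding protein disulfide isomerase and the most abundant of the 37 genes per length in both groups, had 289 and 224 RPKM in induced libraries against 465 and 555 RPKM in untreated ones. The values did not overlap (log2 change -0.99 ± 0.27, adjusted p = 0.0149). After TMM scaling P4HB was not called (log2 change -0.72). PDIA3, which works with the lectin chaperones on glycoproteins, had 63.9 and 88.0 RPKM after induction against 123 and 122 RPKM untreated. It did not overlap either, and its log2 change of -0.70 did not pass (adjusted p = 0.0513), but did under 5 of the 16 alternatives.

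ERO1A (ENSG00000197930.8), the oxidase that passes electrons from reduced isomerases to oxygen, moved the other way. It had 51.02 and 55.06 RPKM in induced libraries against 24.1 and 18.0 RPKM in untreated ones. Both induced values were above both untreated ones, and the log2 change was 1.31 ± 0.24 (adjusted p = 0.00174). Its paralog ERO1B had 11.7 and 9.81 RPKM induced against 10.7 and 5.56 RPKM untreated (log2 change 0.42, adjusted p = 0.267), with overlap; without untreated library 1 it was called higher (log2 change 0.83, adjusted p = 0.0477). The level of ERO1A relative to P4HB, both per length, was 0.176 and 0.246 in induced libraries and 0.0517 and 0.0325 in untreated ones. Relative to PDIA6 it was 1.34 and 2.00 after induction and 0.199 and 0.199 untreated. ERO1A had the largest rise of the list and PDIA6 the largest fall, and P4HB was also called lower. The shifts of both ratios therefore follow from the choice of genes and are no further result. ERP44, which retains ERO1 proteins in the early secretory pathway, had 16.7 and 23.6 RPKM induced against 17.3 and 16.8 RPKM untreated, an overlap. TXNDC5, a further isomerase, was listed in 3 files and had 0.293 RPKM in induced library 2 and 0.147 and 0.651 RPKM in untreated libraries 1 and 2, from 22, 13 and 48 reads; it was not tested.

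**Figure D3:**
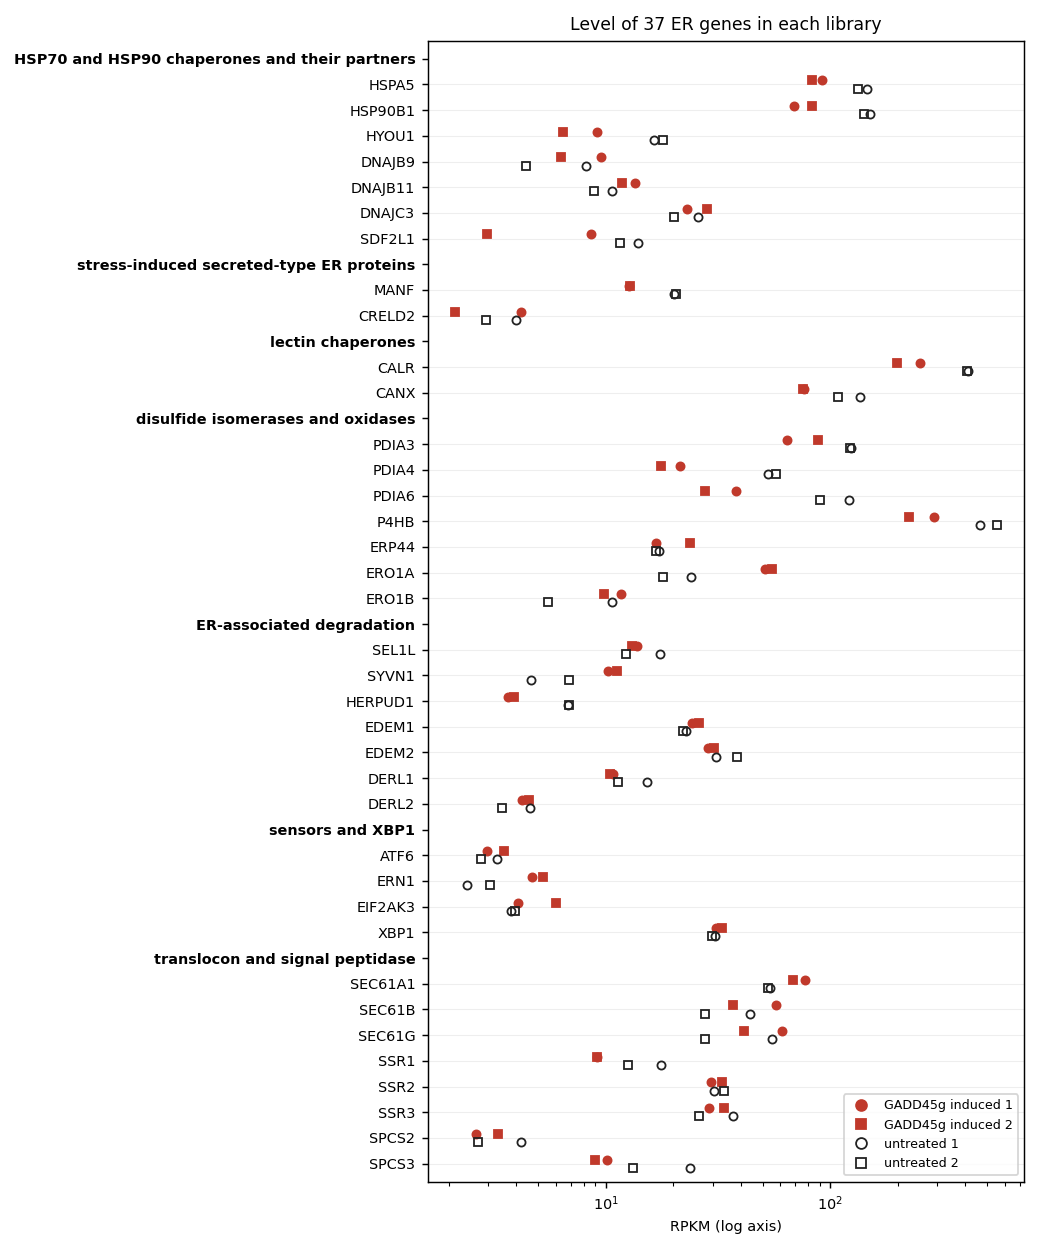
RPKM of the 37 tested genes (horizontal log axis) in each library. Filled red symbols are induced libraries and open symbols untreated ones, circles replicate 1 and squares replicate 2; PDIA6, PDIA4 and ERO1A show the widest gaps between groups.

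Of the 7 genes of ER-associated degradation, 1 rose (14.3%, background 12.2%), 1 fell (14.3%, background 26.7%) and 5 did not pass. SYVN1 (ENSG00000162298.12), the ubiquitin ligase HRD1 that marks ER proteins for the proteasome, had 10.3 and 11.2 RPKM in induced libraries against 4.63 and 6.89 RPKM in untreated ones. The groups did not overlap and the log2 change was 0.82 ± 0.24 (adjusted p = 0.0192). Its scaffold SEL1L had 13.8 and 13.0 RPKM after induction against 17.4 and 12.3 RPKM untreated, so that the ratio of SYVN1 to SEL1L per length was 0.744 and 0.862 in induced libraries and 0.266 and 0.559 in untreated ones. HERPUD1, which assembles this ligase complex, had 3.67 and 3.91 RPKM after induction against 6.82 and 6.85 RPKM untreated. Both groups were tight and apart (log2 change -0.71 ± 0.21, limma adjusted p = 0.0206), but HERPUD1 was called under none of the 4 scalings (log2 change -0.45 to -0.56). The mannose-trimming proteins EDEM1 and EDEM2 had log2 changes of 0.15 and -0.23, and the derlins DERL1 and DERL2, membrane proteins of the exit channel, -0.28 and 0.11.

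Of the 4 genes of the sensors and XBP1, 1 rose (25%, background 12.2%) and 0 fell (background 26.7%). ERN1 (ENSG00000178607.11) had 4.68 and 5.26 RPKM in induced libraries against 2.42 and 3.06 RPKM in untreated ones. Both induced values were above both untreated ones (log2 change 0.68 ± 0.22, adjusted p = 0.0299). EIF2AK3 had 4.06 and 6.03 RPKM after induction against 3.77 and 3.94 RPKM untreated; the groups did not overlap and the log2 change of 0.30 did not pass (adjusted p = 0.341). ATF6 had 2.95 and 3.54 RPKM induced against 3.27 and 2.77 RPKM untreated, an overlap. XBP1 had 31.0 and 33.0 RPKM induced against 30.8 and 29.8 RPKM untreated, a log2 change of 0.08 ± 0.23 (adjusted p = 0.816). These are total XBP1 reads, and its splicing was not analysed here.

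Of the 8 translocon and signal peptidase genes 2 fell (25%, background 26.7%) and 0 rose (background 12.2%). The channel subunits SEC61A1, SEC61B and SEC61G had log2 changes of 0.43, 0.40 and 0.35, of which none passed (adjusted p = 0.175, 0.322 and 0.430). SEC61A1, the pore-forming subunit, had 77.2 and 68.3 RPKM in induced libraries against 54.2 and 53.0 RPKM in untreated ones, without overlap; it was called higher after TMM scaling. SEC61G, a small tail-anchored subunit, had 61.1 and 41.2 RPKM after induction against 55.1 and 27.6 RPKM untreated, so that the replicate 1 libraries were the higher ones in both groups. The TRAP complex, which sits beside the channel and helps some signal sequences engage, had SSR1 at 9.12 and 9.17 RPKM in induced libraries against 17.6 and 12.6 RPKM in untreated ones. The groups were apart (log2 change -0.65, adjusted p = 0.0488); without untreated library 1 the change was -0.43. SSR2 and SSR3, of the same complex, had log2 changes of -0.03 and 0.01. SPCS3, a signal peptidase subunit, had 10.1 and 8.95 RPKM after induction against 23.8 and 13.2 RPKM untreated. Its log2 change of -0.84 (adjusted p = 0.0353) was -0.43 without untreated library 1. SPCS2, another subunit, had 2.65 and 3.32 RPKM induced against 4.20 and 2.70 RPKM untreated, an overlap.

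Over the 37 genes, 8 had both induced values above both untreated ones (21.6%, background 24.1%), 16 had both below (43.2%, background 45.8%) and 13 overlapped; over all tested genes 70.0% did not overlap in either direction. The summed level of the 37 genes was 1477 and 1340 RPKM in induced libraries and 2165 and 2080 RPKM in untreated ones. P4HB and CALR were its largest parts, with means of 257 and 226 RPKM induced against 510 and 410 RPKM untreated. Neither was called after TMM scaling, and they are also the largest parts of the isomerase and lectin sums below. The median log2 change of the list was -0.12. By role, the summed disulfide isomerases and oxidases stood at 492 and 446 RPKM after induction against 814 and 865 RPKM untreated, and the lectin chaperones at 328 and 275 RPKM induced against 547 and 517 RPKM untreated. The sensors and XBP1 summed to 42.7 and 47.9 RPKM induced against 40.3 and 39.6 RPKM untreated, and the translocon and signal peptidase genes to 276 and 235 RPKM induced against 266 and 196 RPKM untreated, where the induced and untreated values overlapped.

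A wider list of 80 ER genes that are not among the 38 was read from the same fit, and 75 of them were tested. Of these 8 rose and 13 fell, 10.7% and 17.3% against backgrounds of 12.2% and 26.7%, with a median log2 change of -0.07. TMM gave 16 rises and 9 falls. Among 16 targeting and translocation genes 1 rose (6.25%) and 3 fell (18.8%), both under the backgrounds. SRPRB, the membrane anchor of the signal recognition particle receptor, had 3.28 and 3.28 RPKM in induced libraries against 11.7 and 10.3 RPKM in untreated ones (log2 change -1.49, adjusted p = 0.000353), and SEC62, which serves post-translational import, had log2 change 0.80 (adjusted p = 0.0237). Of 14 tested N-glycosylation and glycan-trimming genes 2 fell (14.3%, also under the background) and 0 rose. MLEC, a lectin for early glycan forms, had 15.2 and 15.2 RPKM after induction against 43.0 and 42.8 RPKM untreated, a clear separation.

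Among 12 other folding enzymes and co-chaperones 2 rose (16.7%, background 12.2%) and 5 fell (41.7%, background 26.7%). ERP29, an isomerase-like protein without isomerase activity, had 16.1 and 16.4 RPKM in induced libraries against 34.0 and 36.5 RPKM in untreated ones, and DNAJC1, a membrane-bound J-domain protein, had 65.9 and 81.7 RPKM induced against 24.4 and 28.6 RPKM untreated (log2 change 1.44, adjusted p = 0.000974). Of 19 tested further degradation genes 3 rose (15.8%) and 2 fell (10.5%). SELENOK, a selenoprotein of the ER membrane, had 62.8 and 32.9 RPKM after induction against 26.5 and 13.8 RPKM untreated, and UBE2G2, a ubiquitin-conjugating enzyme, had 12.1 and 11.3 RPKM induced against 28.5 and 23.7 RPKM untreated.

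In the stress signalling list 2 of 14 tested genes rose (14.3%, background 12.2%) and 1 fell (7.14%, background 26.7%). PPP1R15A (GADD34), which directs the removal of phosphate from eIF2-alpha, had 168 and 150 RPKM in induced libraries against 44.4 and 55.1 RPKM in untreated ones (log2 change 1.66 ± 0.25, adjusted p = 0.00048). The transcription factors downstream of PERK did not pass. ATF4 had 76.0 and 56.0 RPKM after induction against 78.2 and 70.9 RPKM untreated (log2 change -0.19, adjusted p = 0.595), and DDIT3 (CHOP) had 11.3 and 12.2 RPKM induced against 9.99 and 11.9 RPKM untreated (log2 change 0.10, adjusted p = 0.758). TRIB3, a target of both, had 14.0 and 13.9 RPKM induced against 13.67 and 15.96 RPKM untreated (log2 change -0.08, adjusted p = 0.810). ASNS, asparagine synthetase, another ATF4 target, fell to 3.03 and 1.504 RPKM, against 9.24 and 7.67 RPKM untreated (log2 change -1.57, adjusted p = 0.000911).

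**Figure D4:**
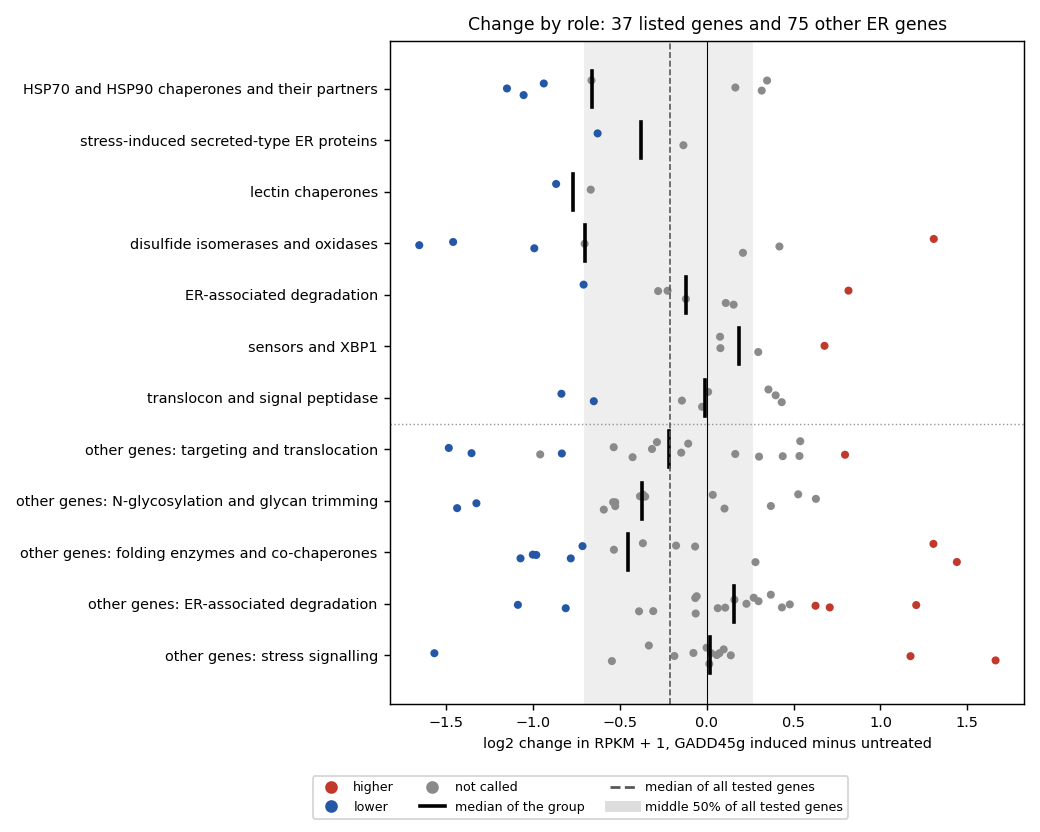
Log2 change in RPKM + 1 (horizontal axis, induced minus untreated) of the 37 genes by role, above the dotted line, and of 75 other ER genes, below it; points are spread vertically within a group for legibility. Red and blue points were called higher and lower, black bars are group medians, and the grey band holds the middle 50% of all tested genes around their median of -0.21.

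**Figure D5:**
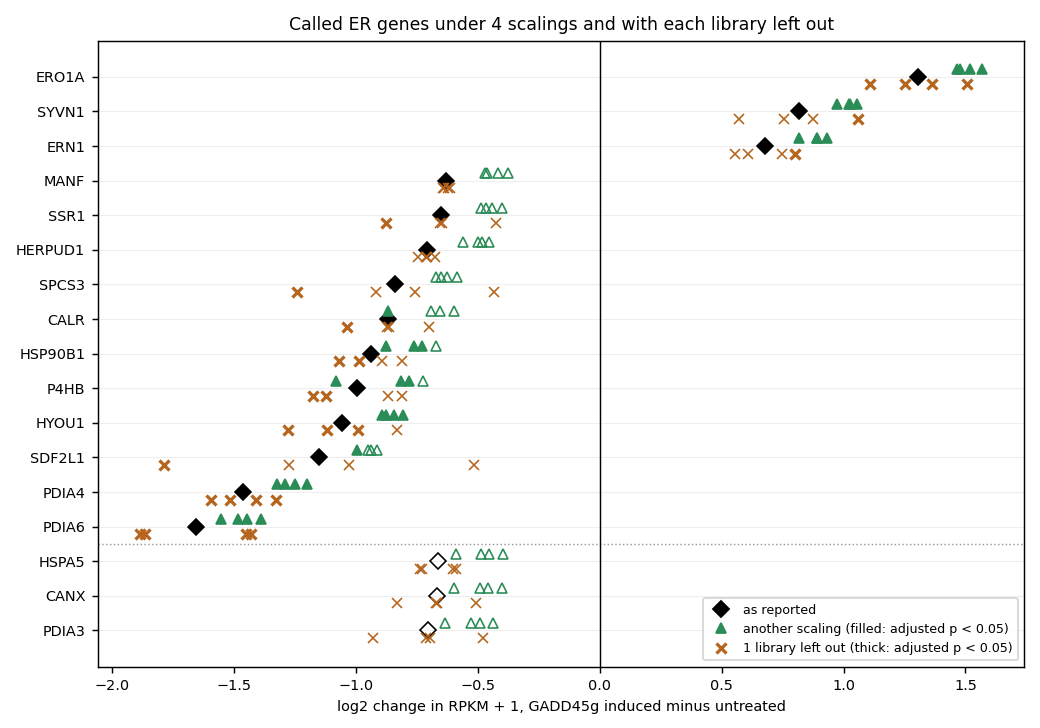
Log2 change in RPKM + 1 (horizontal axis) of the 14 called genes and, below the dotted line, of CANX, HSPA5 and PDIA3, whose adjusted p lay just above the threshold. Diamonds are the reported values, triangles 4 other scalings (filled where adjusted p was under 0.05) and crosses the fits without 1 library (thick where under 0.05); PDIA4, PDIA6 and ERO1A are filled or thick throughout.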

How the data were processed

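RNA of 4 libraries of MOLM-13 cells, 2 induced and 2 untreated by the treatment labels, was profiled by sequencing. Values are RPKM as deposited by the authors, per the file headers. Per the submitters' processing notes, hg19 was the build and TopHat, Cuffnorm and Cuffdiff were among the tools. The sources used here do not state strand, so overlapping genes cannot be told apart. Induced library 1 breaks off after 27332 of 57820 IDs, and testing was limited to genes present in every file. IDs were paired with symbols through a table of gene names (51996 matched), and rows of a symbol were summed.

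Depth was recovered because low RPKM values (up to 20 reads) equalled whole reads, to within 0.01, in 100% of values of genes with an identical model in GENCODE release 29. Reads per gene followed from solved gene lengths, within 0.005 reads. Genes whose 4 libraries averaged 1 RPKM or more were tested on log2(RPKM + 1) with limma 3.58.1 in R 4.3.3 (lmFit, eBayes with trend, two-sided, Benjamini-Hochberg over all genes, threshold 0.05); this scale understates changes of low genes. Residual and prior degrees of freedom were 2 and 8.72. SDs and ratios used pandas 2.3.3 and figures matplotlib 3.10.9. Alternatives were other pseudocounts, filters, scalings, priors, a replicate block, each library left out and, chosen after seeing the data, voom on the recovered reads.

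The text gives all 38 genes, GADD45G, for each list of other ER genes the called gene with the largest rise and fall, and 4 genes downstream of PERK. Members and lists were chosen with earlier results of these data known. Retrieval signals at protein ends were not analysed here. No coordinates are given other than those of RefSeq promoters, since the reference is of another build than the files.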

Additional observations from a re-analysis of the deposited data

How the results depend on the processing

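PDIA4, PDIA6 and ERO1A were called under all 16 alternatives run. None of the 14 called genes changed direction under any of them. For the fits without a library this was fixed in advance, since the groups did not overlap for any of the 14. CANX, HSPA5 and PDIA3 joined the calls with a replicate block by title suffix, with voom on recovered reads, without a trend, with a robust prior and with a filter at 5 RPKM. The block gave 17 called members (14 lower) and 4987 called genes, with adjusted p of 0.0190 for CANX, 0.0191 for HSPA5 and 0.0131 for PDIA3. The labels do not say what the suffix marks; libraries of the same suffix share their epithelial marker level, and their deviations correlated at 0.349 across genes, with 2 pairs to judge by. With no filter the calls numbered 2462 genes (823 higher, 1639 lower), 4 members (1 and 3) and 11 other ER genes (4 and 7), where 20689 genes shared the adjustment. Scaling gave 9 called members (6 lower) with upper quartile, 7 (3 lower) with TMM, 9 (6 lower) with quantile normalization and 8 (5 lower) with a shifted median; other ER genes called higher then numbered 13, 16, 14 and 15. Leaving out each library gave 2597 to 3582 called genes (798 to 1133 higher, 1766 to 2449 lower), 4 to 9 called members (1 to 3 higher, 3 to 6 lower) and 13 to 16 other ER genes (4 to 6 higher).

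Genes that were not called changed sign in places. With upper quartile, TMM, quantile and median-shift scaling SEL1L changed by 0.046, 0.13, 0.048 and 0.091 and SSR2 by 0.15, 0.24, 0.13 and 0.18 on the log2 scale; with the last 3 of these CRELD2 changed by 0.070, 0.16 and 0.077 and SPCS2 by 0.062, 0.15 and 0.068, and with TMM EDEM2 by 0.037. Without each library the log2 change ran from -0.066 to 0.70 for DNAJB9, -0.0026 to 0.33 for DNAJC3, -0.50 to 0.23 for CRELD2, -0.030 to 0.45 for ERP44, -0.35 to 0.11 for SEL1L, -0.059 to 0.28 for DERL2, -0.022 to 0.18 for ATF6, -0.13 to 0.84 for SEC61G, -0.11 to 0.053 for SSR2, -0.24 to 0.25 for SSR3 and -0.39 to 0.10 for SPCS2. The cause was not tested. HSPA5 (1.59-fold lower) passed under 5 of the 16 alternatives and MANF, with a fold of the same size, under 7.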
